A study of Mus musculus with 3143 samples.

Results

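The measurements cover 8 genes of innate immune sensing in single mouse kidney cells: the Toll-like receptor genes Tlr2, Tlr3, Tlr4, Tlr7, Tlr9, Tlr12 and Tlr13, and the adaptor gene Myd88. They were taken by symbol from a table of 46517 gene names, whatever their values, and all 8 were present. The cells came from adult C57BL/6 mice. The glomerular fraction of the kidney was dissociated, cells stained with the viability dye CMFDA were sorted into 384-well plates, and each well was sequenced by Smart-seq2, a method that reads full-length polyadenylated RNA of 1 cell. Of 3143 cells, 1798 on 6 plates carried the treatment label IgAN (IgA nephropathy, a glomerular disease with deposits of immunoglobulin A) and 1345 on 4 plates carried the label Control. The labels do not say how the IgAN mice were made, and no animal, age in weeks or sex is named.

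Each group therefore counted as 1 sample, no test between groups was possible, and no p-value is given. Since no plate held cells of both groups, a difference between groups cannot be told apart from one between plates. IgAN cells held a median of 231222 reads in genes and Control cells 241543. The range over all cells was 50365 to 1135415 reads. A level below is the reads of a gene over all reads in genes of a set of cells, scaled to 1000000 reads (CPM), and its spread is the range over plates that held at least 10 of those cells. A cell is called positive here when it held 10 reads or more of the gene, and intervals are exact 95% intervals that cover counting error only.

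Toll-like receptors bind molecules of microbes or of damaged cells. Tlr2 and Tlr4 sit at the cell surface, where Tlr2 detects bacterial lipoproteins and Tlr4, with Ly96 and Cd14, detects lipopolysaccharide. Tlr3, Tlr7, Tlr9 and Tlr13 read nucleic acids in endosomes, which they reach with the help of Unc93b1: double-stranded RNA for Tlr3, single-stranded RNA for Tlr7, DNA with unmethylated CpG for Tlr9 and bacterial ribosomal RNA for Tlr13. Tlr12, known from the mouse, binds profilin of Toxoplasma. All of these receptors except Tlr3 signal through Myd88, Tlr3 signals through the adaptor Ticam1, and Tlr4 uses both. Both routes end in NF-kB and interferon regulatory factors.

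The genes lie on 5 chromosomes of GRCm38 (GENCODE vM21 annotation). Tlr2 is at chr3:83836272-83841767 on the minus strand, Tlr3 at chr8:45395665-45411080 (minus), Tlr4 at chr4:66827584-66930284 (plus) and Tlr7 at chrX:167304929-167330558 (minus). Tlr9 is at chr9:106222598-106226883 (plus), Tlr12 at chr4:128615443-128618619 (minus), Tlr13 at chrX:106143204-106160493 (plus) and Myd88 at chr9:119335934-119341411 (minus). Reads were counted in exons of the whole gene. The exons of Tlr12 form 1 unbroken block of 3177 bases. A gene on the other strand, Acaa1a, overlaps 11.3% of the exon bases of Myd88, and another, Gm45542, overlaps 7.32% of those of Tlr3, and reads of such a pair cannot be told apart unless counting used strand, which is not stated.

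Tlr9 and Tlr13 were found at 35.5 CPM or more in 2 leukocyte classes each, and at under 2 CPM over both groups in every other class, so their promoters are shown, from 250 bases before to 50 bases after the start of the gene (RefSeq, GRCm38.p6, plus strand, chr9:106222348-106222647 and chrX:106143025-106143324). Capitals mark the matches to the motifs searched.
Tlr9: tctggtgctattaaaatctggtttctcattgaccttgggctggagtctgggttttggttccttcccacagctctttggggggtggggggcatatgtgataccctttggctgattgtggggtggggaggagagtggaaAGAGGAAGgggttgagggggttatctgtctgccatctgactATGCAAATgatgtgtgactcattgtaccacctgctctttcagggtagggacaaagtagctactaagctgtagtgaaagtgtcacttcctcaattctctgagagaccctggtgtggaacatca
Tlr13: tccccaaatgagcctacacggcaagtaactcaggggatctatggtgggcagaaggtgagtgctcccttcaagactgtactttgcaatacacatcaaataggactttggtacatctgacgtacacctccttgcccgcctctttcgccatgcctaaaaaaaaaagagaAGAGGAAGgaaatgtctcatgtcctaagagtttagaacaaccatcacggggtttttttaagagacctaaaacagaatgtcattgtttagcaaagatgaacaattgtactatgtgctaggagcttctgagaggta
The search for 4 motif types covered both strands of the promoters of the 6 members for which the table holds one (Tlr2, Tlr3, Tlr9, Tlr12, Tlr13 and Myd88). AGAGGAAG, the type bound by PU.1, a transcription factor of myeloid and B cells, was present in 4.55% of 32851 mouse promoters of the same length, and it lies 113 bases before the start of Tlr9 and 84 bases before that of Tlr13. ATTTGCAT, the octamer, was present in 1.74% of promoters. It lies 72 bases before the start of Tlr9 on the opposite strand, so that it reads ATGCAAAT above. A motif of the interferon-stimulated response element type was present in 3.44% of promoters and in that of Myd88, 40 bases before its RefSeq start. The stretches searched for Myd88 (chr9:119339969-119340268) and Tlr3 (chr8:45410331-45410630) lie inside the GENCODE spans given above, so the annotations place these starts differently. The RefSeq starts of Tlr2 and Tlr13 also differ from the GENCODE ones. A kappaB motif was present in 0.155% of promoters and in none of the 6. A match is a description of the letters and not a bound site.

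Cells were sorted into classes by Leiden clustering without the genes of this family, and a cluster was called "X-like" from marker genes. The largest classes were endothelial-like (1024 IgAN and 574 Control cells), macrophage or dendritic-like (176 and 99), proximal tubule-like (150 and 85), T or NK cell-like (89 and 128) and podocyte-like (40 and 146). There were also mesangial-like (103 and 46), B or plasma cell-like (27 and 117), distal tubule or collecting duct-like (75 and 46), parietal epithelial-like (46 and 22), contractile smooth muscle or renin cell-like (24 and 17) and neutrophil-like cells (9 and 12). An unnamed cluster led by Tspan8, Thbs2 and Calca held 35 IgAN and 53 Control cells. In each named class all of the markers of that class were higher than in the other cells, except in parietal epithelial-like cells, where 4 of 6 were. Tubule and blood cells were thus present beside the glomerular cells. The groups also drew on different endothelial-like clusters: 1 cluster held 309 IgAN and 24 Control cells, while another held 26 IgAN and 274 Control cells. Plates of the same group differed as well. The first of these clusters held 83, 120 and 80 cells of IgAN plates 315, 318 and 325, but 8, 6 and 12 of IgAN plates 313, 316 and 322. A further endothelial-like cluster drew 159 of its 278 cells from IgAN plate 322.

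RNA of the 8 genes was sparse. At least 1 read of Myd88 was found in 51.4% of all cells and 10 reads or more in 20.2%. For Tlr2 the shares were 37.0% and 11.9%, and for Tlr12 65 cells held a read and 16 held 10 or more. Between 53.4% and 73.8% of the cells with a read of a given gene held only 1 to 3 reads, and these cells together held between 1.58% and 2.60% of the gene's reads. Such low counts also occurred in classes with next to no positive cell. For Tlr13, 12.5% of endothelial-like cells held at least 1 read but 0.125% held 10 or more, at median depths of 233199 reads in IgAN and 266546 in Control endothelial-like cells.

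**Figure D1:**
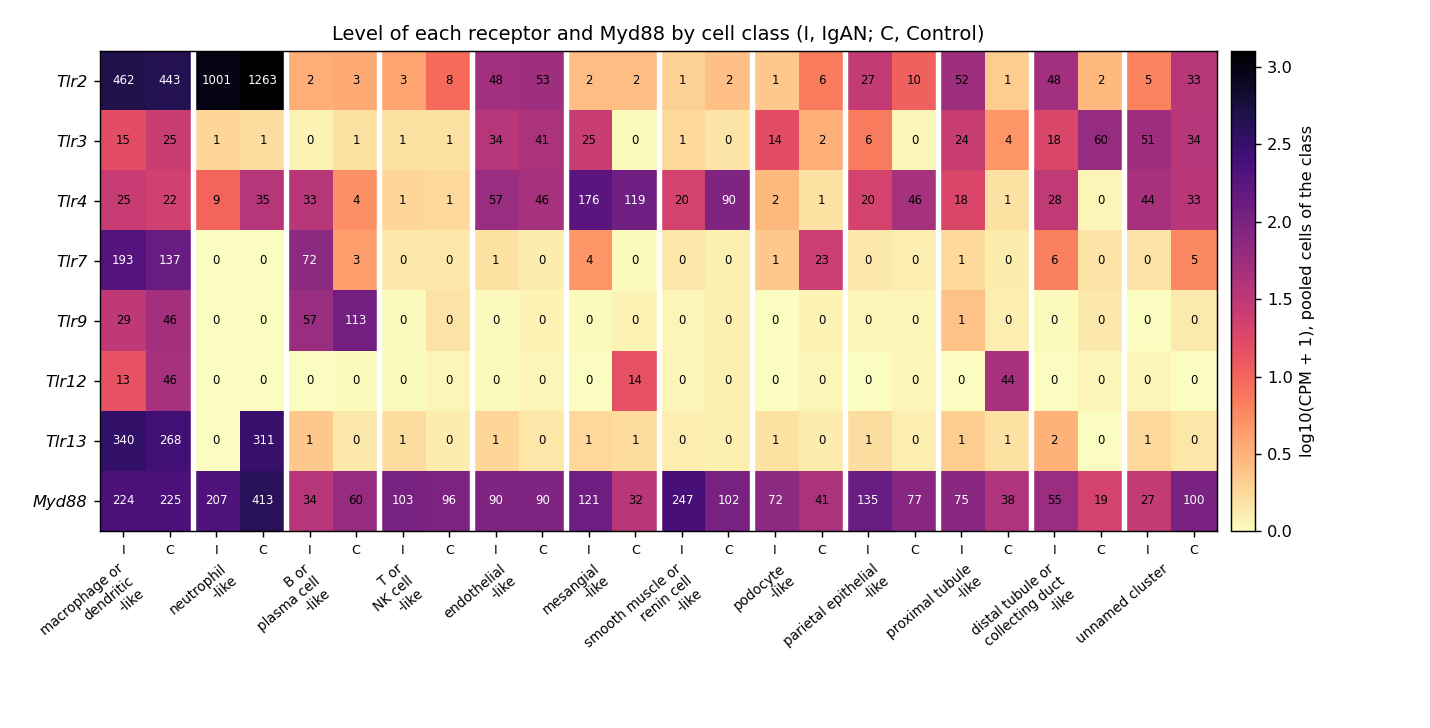
Levels of the 8 genes in 12 classes of cells, as log10(CPM + 1) by colour with the rounded CPM printed, IgAN (I) left of Control (C). The endosomal receptors Tlr7, Tlr9 and Tlr13 stand out in leukocyte classes, Tlr4 in mesangial-like cells, and Myd88 is at 19.4 CPM or more in every class of both groups.

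Of the surface receptors, Tlr2 was highest in neutrophil-like cells, at 1001 CPM in 9 IgAN cells and 1263 CPM in 12 Control cells, of which 3 and 7 were positive. Macrophage or dendritic-like cells followed at 462 CPM in IgAN (plates 335 to 762) and 443 CPM in Control (plates 355 to 755). The share of positive cells there was 55.7% in IgAN (48.0 to 63.2) and 60.6% in Control (50.3 to 70.3). Over both groups this level was 9.11 times that of endothelial-like cells, the next class, and the plate ranges of these 2 classes did not overlap. Endothelial-like cells held 48.3 CPM in IgAN (31.1 to 70.4) and 52.7 CPM in Control (40.8 to 69.0), and about 1 cell in 10 was positive (10.4% and 10.6%). Parietal epithelial-like cells held 27.0 CPM in IgAN and 9.82 CPM in Control, the unnamed cluster 5.42 CPM and 32.9 CPM, T or NK cell-like cells 2.92 CPM and 8.28 CPM, and podocyte-like cells 1.26 CPM and 6.20 CPM. The lowest levels over both groups were those of B or plasma cell-like (2.50 CPM), mesangial-like (1.64 CPM) and contractile or renin cell-like cells (1.20 CPM). From endothelial-like cells down to the parietal epithelium, neighbours in this order overlapped in their plate ranges.

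Tlr4 had another order. It was highest in mesangial-like cells, the contractile support cells of the glomerular tuft, with 176 CPM in IgAN and 119 CPM in Control. By plate, IgAN mesangial-like cells held 123, 108, 43.2 and 309.9 CPM, and Control cells 121, 141 and 109 CPM, so that the Control plates lay inside the IgAN range. Positive cells made up 36 of 103 in IgAN (35.0%, interval 25.8 to 45.0) and 11 of 46 in Control (23.9%, interval 12.6 to 38.8). Endothelial-like cells were second at 57.2 CPM in IgAN (33.7 to 114) and 45.5 CPM in Control (39.8 to 62.5). The mesangial-like level was 2.97 times the endothelial-like one over both groups, although 3 of the 7 mesangial-like plates fell within the endothelial-like range. Next came contractile or renin cell-like cells (19.9 CPM in IgAN, 90.3 CPM in Control), the unnamed cluster (43.7 CPM and 32.6 CPM), parietal epithelial-like cells (19.8 CPM and 45.6 CPM) and macrophage or dendritic-like cells (25.4 CPM and 21.6 CPM), whose plate ranges overlapped where they had any. Podocyte-like and T or NK cell-like cells were lowest at 0.797 and 0.759 CPM over both groups. Its partners were found in the same class: Ly96, which holds lipopolysaccharide, at 17.0 CPM in IgAN and 13.1 CPM in Control mesangial-like cells, and Cd14, which hands it over, at 75.1 CPM and 64.9 CPM.

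Of the endosomal receptors, Tlr3 was found in resident as well as in myeloid cells. The unnamed cluster held 51.4 CPM in IgAN and 34.1 CPM in Control, and endothelial-like cells 33.8 CPM in IgAN (18.9 to 48.9) and 41.4 CPM in Control (28.4 to 56.7). The plate ranges of these 2 classes overlapped, so they do not differ beyond their spread. Distal tubule or collecting duct-like cells held 17.9 CPM in IgAN and 59.7 CPM in Control. Macrophage or dendritic-like cells held 14.7 CPM and 25.0 CPM, and in both classes the plate ranges of the groups overlapped. Podocyte-like cells held 14.4 CPM in IgAN and 2.25 CPM in Control. The 2 IgAN plates with 10 such cells held 32.9 and 13.0 CPM, with 1 positive cell each. They lay above the 4 Control plates, at 0.299 to 6.04 CPM. The smaller IgAN sets of 3 or 6 cells held 0 to 2.54 CPM, below the highest Control plate. Lymphocytes were at the low end, with 0.539 CPM in T or NK cell-like cells and 0.459 CPM in B or plasma cell-like cells over both groups.

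Tlr7 and Tlr13 belonged to macrophage or dendritic-like cells. Tlr7 stood at 193 CPM in IgAN (51.5 to 308) and 137 CPM in Control (79.4 to 313), with 52.3% of IgAN and 42.4% of Control cells positive. Tlr13 stood at 340.4 CPM in IgAN (199.9 to 461) and 268 CPM in Control (139.6 to 357), with 53.4% and 46.5% of cells positive. Both pairs of ranges overlapped. The next class for Tlr7 was podocyte-like, 9.17 times lower over both groups with no overlap of plates. Tlr13 was otherwise seen in neutrophil-like cells, with 0 reads in 9 IgAN cells and 311 CPM in 12 Control cells. That is at least 125 times higher in Control when IgAN is set to 3 counts over the group, but it rests on 3 positive cells, and 1 of them held 39.9% of the reads. The macrophage or dendritic markers summed to 2078 CPM in these IgAN cells and 4306 CPM in these Control cells, with 8 of 9 at 1 CPM or more and Flt3 at 0 in both, and their part was not tested.

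Tlr9 was highest in B or plasma cell-like cells, at 57.3 CPM in 27 IgAN cells and 113 CPM in 117 Control cells. The Control plates ran from 70.5 to 139 CPM. No IgAN plate reached 10 such cells, and the values of these small IgAN sets ran from 0 to 177 CPM, on both sides of the Control plates. Positive cells were 6 of 27 in IgAN (22.2%, interval 8.62 to 42.3) and 31 of 117 in Control (26.5%, interval 18.8 to 35.5). Macrophage or dendritic-like cells were second with 29.3 CPM in IgAN (1.07 to 175, median 19.5) and 46.0 CPM in Control (21.0 to 108), and 15 of 176 IgAN and 20 of 99 Control cells were positive. Outside these 2 classes, no class exceeded 1.04 CPM over both groups, and there was no positive cell among the endothelial-like, mesangial-like, podocyte-like and T or NK classes. Unc93b1, the carrier of the endosomal receptors, had its highest levels in the same classes, with 1363 CPM in IgAN and 1020.3 CPM in Control for B or plasma cells, and 867 CPM and 1039 CPM for macrophage or dendritic-like cells.

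Tlr12 was the rarest of the 8. Its 16 positive cells were 3 IgAN macrophage or dendritic-like cells on one side, and 6 macrophage or dendritic-like, 6 proximal tubule-like and 1 mesangial-like cell of Control on the other. In macrophage or dendritic-like cells this gave 13.1 CPM in IgAN and 45.5 CPM in Control.

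The adaptor Myd88 was found in every class. Neutrophil-like cells held 207 CPM in IgAN and 413 CPM in Control, macrophage or dendritic-like cells 224 CPM in IgAN (188 to 278) and 225 CPM in Control (38.5 to 293), and contractile or renin cell-like cells 247 CPM and 102 CPM. Their order could not be set, for lack of plates with 10 cells in 2 of these classes. Parietal epithelial-like cells held 135 CPM in IgAN and 76.8 CPM in Control. Endothelial-like cells held 90.2 CPM in IgAN (59.8 to 109) and 89.8 CPM in Control (62.6 to 112), and the T or NK class 103 CPM (55.7 to 224) and 95.5 CPM (65.9 to 164). B or plasma cell-like cells held 33.9 CPM in IgAN and 59.5 CPM in Control, podocyte-like cells 72.0 CPM and 41.2 CPM, and the distal tubule or collecting duct class, lowest over both groups, 55.2 CPM and 19.4 CPM. Lymphoid T or NK cell-like cells thus held the adaptor at 98.7 CPM over both groups while none of the receptors followed here passed 5.97 CPM. Of 5 other Toll-like receptor genes (Tlr1, Tlr5, Tlr6, Tlr8 and Tlr11), 1 reached 10 CPM and 10% of cells with a read in a group of this class. Among other receptors that use Myd88 are those for interleukins 1 and 18.

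**Figure D2:**
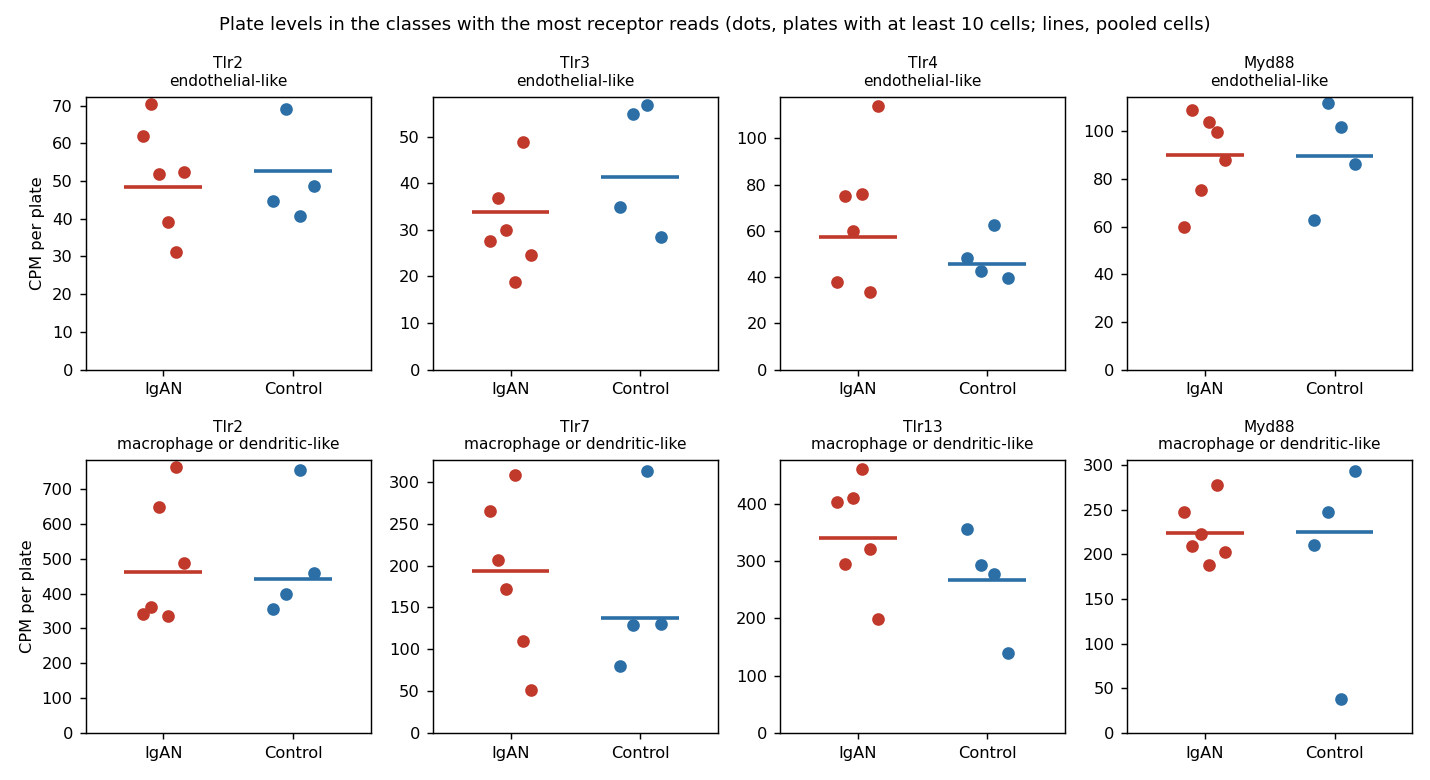
Levels by plate (CPM) of 4 genes in endothelial-like cells and 4 in macrophage or dendritic-like cells, IgAN plates left of Control plates, with the pooled level as a line. The ranges of the plates overlap in all 8 panels, as with endothelial-like Myd88 at 59.8 to 109 CPM in IgAN and 62.6 to 112 CPM in Control.

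Compared per kilobase of exon, which allows genes of different length to be set side by side, macrophage or dendritic-like cells over both groups held most Tlr2 (151 CPM per kb), then Myd88 (87.1), Tlr13 (72.8) and Tlr7 (42.1). Tlr9 (10.2), Tlr12 (7.91), Tlr4 (4.33) and Tlr3 (3.56) were far below. In mesangial-like cells Myd88 was at 35.7 and Tlr4 at 28.2 CPM per kb, with the other receptors at 3.23 or less.

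Within macrophage or dendritic-like cells, markers of monocytes, macrophages and dendritic cells told the receptors further apart. Over both groups, Tlr2 was at 527 CPM in non-classical monocytes, 575 CPM in classical monocytes and 560.2 CPM in macrophages, and at 203 CPM in 23 conventional dendritic cells. Tlr13 ran from 429 CPM in 143 non-classical monocytes through 279 CPM in 41 classical monocytes and 260.3 CPM in 28 macrophages to 53.2 CPM in conventional and 0.719 CPM in 8 plasmacytoid dendritic cells. The conventional dendritic gate held the largest values of Tlr3 and Tlr12. Tlr3 was at 108 CPM in conventional dendritic cells and at 14.8 CPM or less in the other gates. Tlr12 was at 173 CPM there, with 6 of 23 cells positive: 104 CPM in IgAN (2 of 12 cells) and 257 CPM in Control (4 of 11 cells). Tlr9 stood at 110.3 CPM in the 8 plasmacytoid dendritic cells, cells known for interferon release, but 1 of them held 81.8% of the reads: 354 CPM in 3 IgAN cells and 26.1 CPM in 5 Control cells. In classical monocytes it was at 32.8 CPM in 20 IgAN cells and 133 CPM in 21 Control cells, so the order of the gates for Tlr9 differed between the groups. Tlr7 stood at 151 CPM in plasmacytoid dendritic cells. In conventional dendritic cells Tlr7 was at 15.0 CPM, against 221 CPM in non-classical monocytes. Tlr4 was highest in macrophages, at 76.1 CPM. Between groups, non-classical monocytes held 266 CPM of Tlr7 in IgAN and 126 CPM in Control, and 467 CPM and 348 CPM of Tlr13. The plate ranges overlapped, at 81.0 to 471 CPM in IgAN and 90.4 to 105 CPM in Control for Tlr7, and at 344 to 561 CPM and 172 to 625 CPM for Tlr13. Classical monocytes held 178 CPM of Tlr7 in IgAN and 133 CPM in Control, and 182 CPM and 362 CPM of Tlr13. The gates are small and cells of 1 gate share plates, so these are descriptions.

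**Figure D3:**
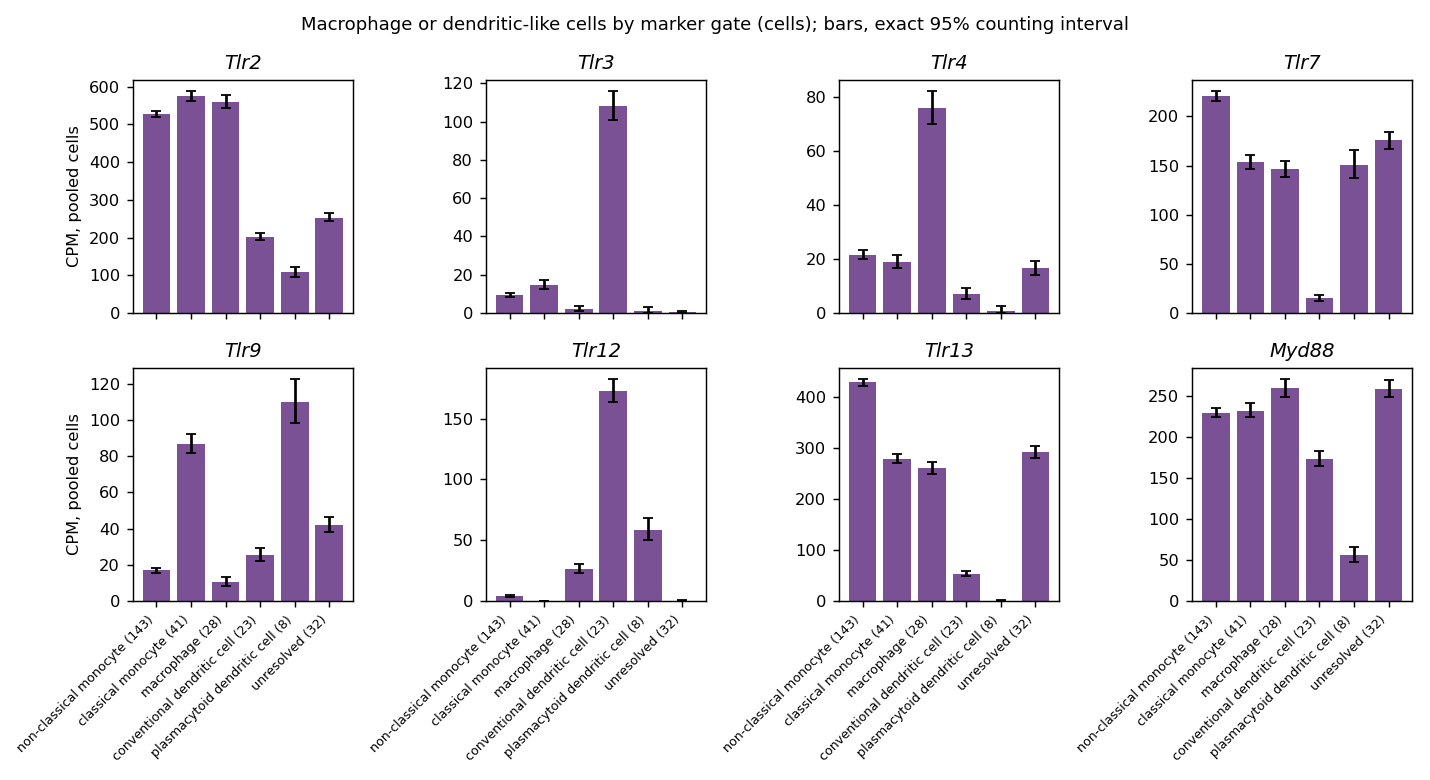
Levels (CPM) of the 8 genes in gates of macrophage or dendritic-like cells over both groups, bars with exact 95% counting intervals. Tlr13 falls away in dendritic gates, where Tlr3 (108 CPM) and Tlr12 (173 CPM) have their largest bars in the conventional gate. The plasmacytoid bar of Tlr9 (110.3 CPM) rests for 81.8% of its reads on 1 of 8 cells.

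Many macrophage or dendritic-like cells held several receptors at once. Of the 7 receptors, at least 1 was at 10 reads or more in 88.1% of IgAN and 93.9% of Control cells of that class, and at least 2 in 59.7% and 62.6%. In endothelial-like cells these shares were 31.0% and 32.8% for any receptor and 4.59% and 4.18% for 2 or more. Any receptor was found in 1.12% of IgAN and 0.781% of Control T or NK cells. Proximal tubule-like cells had any receptor in 26.7% of IgAN and 8.24% of Control cells, and mesangial-like cells in 40.8% and 26.1%.

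**Figure D4:**
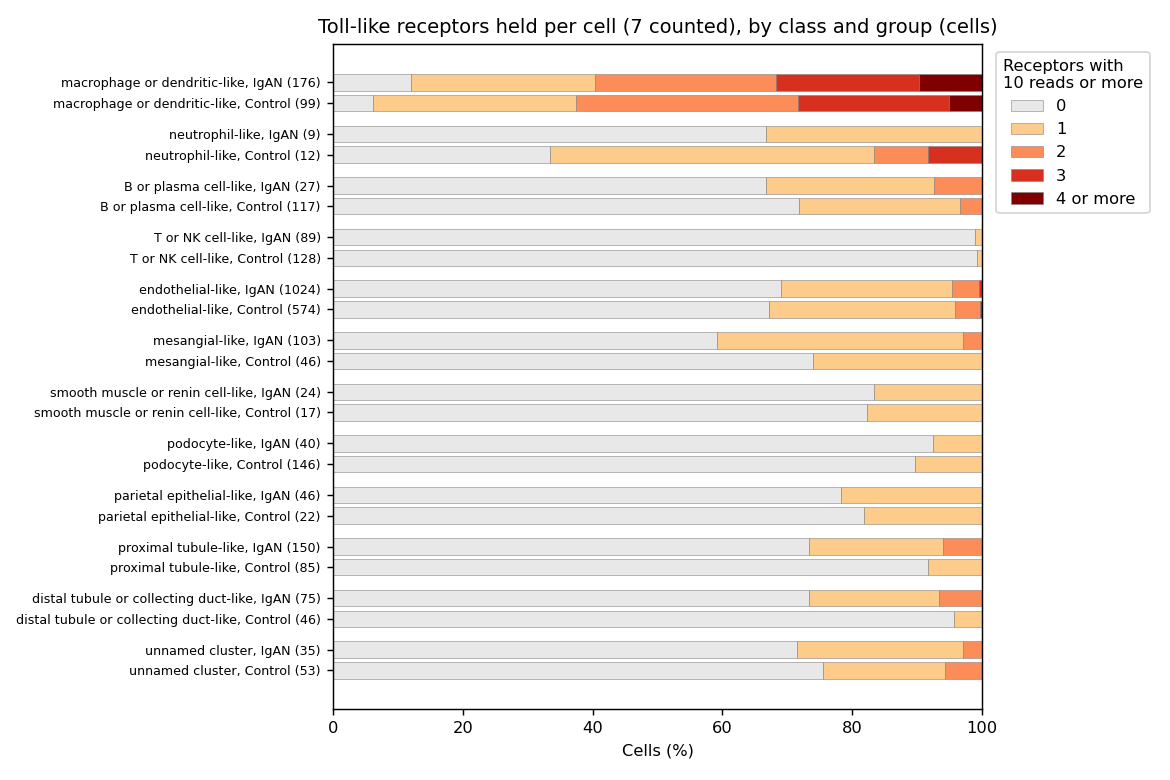
Share of cells (percent) with 0, 1, 2, 3 or at least 4 of the 7 receptors at 10 reads or more, by class, IgAN next to Control. Macrophage or dendritic-like cells with 2 or more receptors make up 59.7% in IgAN and 62.6% in Control, while most other cells hold none.

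Pairs of genes in the same cell were compared as shares. Of macrophage or dendritic-like cells positive for Tlr4, 22 of 28 (78.6%) were positive for Tlr2, against 136 of 247 (55.1%) of those without Tlr4. Tlr13 was found in 75 of 134 cells with Tlr7 (56.0%) and in 65 of 141 cells without (46.1%). Myd88 was positive in 45.6% of cells with Tlr2 and in 47.0% of cells without. In mesangial-like cells, 16 of 47 Tlr4-positive cells (34.0%) and 14 of 102 others (13.7%) were positive for Myd88. The Tlr4-positive mesangial-like cells also held more reads, with a median of 239524 against 202632 in other IgAN cells and 332576 against 209269 in other Control cells, and the part of depth was not tested.

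The question of the design, what differs in IgAN, was asked in the 5 classes with at least 3 plates of 10 cells in each group. A gene was called higher or lower when its log2 ratio of IgAN over Control CPM, with 1 CPM added, was at least 1 in size and every such IgAN plate lay above (or below) every such Control plate. Of the 40 pairs of gene and class, 20 were measured (at least 10 CPM and 10% of cells with a read in 1 group). Tlr3 in mesangial-like cells and Tlr2 in proximal tubule-like cells met the rule for higher, and Tlr12 in proximal tubule-like cells met it for lower. By the same rule the share of measured genes called in mesangial-like cells was 2.42% for higher and 2.21% for lower, of 10064 genes. In proximal tubule-like cells 6.96% of 10358 genes were called higher and 2.18% lower. No member met the rule in endothelial-like (0.791% of genes higher, 0.678% lower), macrophage or dendritic-like (0.789% and 0.461%) or T or NK classes (0.424% and 1.26%).

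Tlr3 in mesangial-like cells stood at 25.1 CPM in 103 IgAN cells and 0.0817 CPM in 46 Control cells (log2 ratio 4.59). By plate it was 23.2, 5.09, 17.6 and 33.4 CPM in IgAN, and 0, 0.233 and 0 CPM in Control, and the smaller sets held 1.07 and 82.2 CPM in IgAN (9 and 8 cells) and 0 CPM in Control (3 cells). Every IgAN plate lay above every Control plate. The reads behind this were 623 in IgAN and 1 in Control, and the ratio of levels was 307 with a counting interval of 54.9 to 12135. The signal came from few cells: 7 of 103 IgAN cells were positive (6.80%, interval 2.78 to 13.5), against 0 of 46 in Control (up to 7.71%), and 1 cell held 27.9% of the reads. Endothelial markers, which come with Tlr3 at 33.8 CPM in IgAN endothelial-like cells, summed to 1965 CPM in IgAN mesangial-like cells (plates 1716 to 2606) and 1448 CPM in Control ones (1288 to 1649.8). All 8 of these markers were detected in both. The 7 positive cells had a median endothelial marker sum of 2184 CPM, against 1461 CPM in the other IgAN cells. The podocyte markers, all 7 of them detected, summed to 672 CPM in IgAN mesangial-like cells (plates 257 to 4694) and 258 CPM in Control ones (160.0 to 406), and Tlr3 was at 14.4 CPM in IgAN podocyte-like cells. The part of both lists in the difference was not tested.

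In the same cells Myd88 was at 121 CPM in IgAN and 32.2 CPM in Control, a log2 ratio of 1.88. The IgAN plates, at 87.5, 66.7, 191 and 12.3 CPM, overlapped the Control plates, at 40.8, 31.5 and 28.0 CPM, since 1 IgAN plate of 12 cells lay below them all. It therefore did not meet the rule, and did so when that plate was left out.

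Tlr2 in proximal tubule-like cells, the epithelium that takes back most of the filtrate, stood at 51.9 CPM in 150 IgAN cells and 1.07 CPM in 85 Control cells (log2 ratio 4.68). By plate it was 21.5, 33.1, 79.9 and 28.5 CPM in IgAN and 1.54, 1.20 and 0.775 CPM in Control. These IgAN plates were all above the Control plates, while the smaller IgAN sets of 3 and 6 cells held 0 and 300.4 CPM. The reads were 1869 in IgAN and 20 in Control, and the ratio of levels was 48.7 with a counting interval of 31.4 to 79.9. Positive cells numbered 14 of 150 in IgAN and 0 of 85 in Control. A single IgAN cell, on a plate with 6 such cells, held 880 reads, 47.1% of the total. Without its reads the IgAN level was 27.5 CPM, and without its plate the log2 ratio was 3.90.

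Endothelial RNA also differed between the groups here. The endothelial markers summed to 3702 CPM in IgAN and 162 CPM in Control proximal tubule-like cells, 28.9% and 1.19% of their level in endothelial-like cells. All 8 were detected in both groups, with plates at 164 to 6748 CPM in IgAN and 116 to 232 CPM in Control. The 14 positive cells had a median sum of 7387 CPM, against 594 CPM in the other IgAN cells. They also held more macrophage or dendritic markers (median 185 CPM, against 56.4 CPM in the other IgAN cells) and fewer proximal tubule markers (2588 CPM against 6861 CPM). Over the class, the macrophage or dendritic markers summed to 199.8 CPM in IgAN (64.2 to 244, 8 of 9 at 1 CPM or more) and 101 CPM in Control (54.9 to 178, 7 of 9). The T or NK cell markers summed to 119 CPM in IgAN (7.72 to 251, 5 of 9) and 18.0 CPM in Control (12.3 to 22.7, 7 of 9). The part of these lists was not tested. In cells with a sum under 1000 CPM, a limit chosen after seeing the data, Tlr2 was at 67.7 CPM in 86 IgAN cells and 1.07 CPM in 85 Control cells and the call was kept, with 4 and 0 positive cells. The cell with 880 reads is among them and held 64.3% of their reads, and without these reads the IgAN level was 24.2 CPM. On the 2 IgAN plates lowest in endothelial markers among those with 10 cells, at 164 and 658 CPM of markers, Tlr2 was at 33.1 and 79.9 CPM with 1 positive cell each. IgAN plates 315 and 325, at 3914 and 6748 CPM of markers, held 21.5 and 28.5 CPM of Tlr2 with 5 and 6 positive cells. The 64 IgAN cells with a sum of 1000 CPM or more held 31.8 CPM of Tlr2, with 10 positive cells.

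Tlr3 and Tlr4 did not meet the rule of size in the cells low in endothelial markers. Tlr3 was at 24.5 CPM in IgAN and 3.79 CPM in Control proximal tubule-like cells, but at 2.72 CPM and 3.79 CPM in those with little endothelial RNA. Tlr4 was at 18.0 CPM in IgAN and 0.533 CPM in Control, and at 1.19 CPM and 0.533 CPM in the cells low in endothelial markers, while the 64 IgAN cells with a sum of 1000 CPM or more held 39.5 CPM. Myd88 was at 74.6 CPM in IgAN (32.3 to 96.7) and 38.4 CPM in Control (4.29 to 68.4), and at 63.5 CPM and 38.4 CPM in the low cells. There 1 cell held 31.3% of the IgAN reads of Myd88, and 1 cell held 32.4% of the Control reads. Without the reads of these cells the levels were 43.6 CPM and 26.0 CPM. Tlr3, Tlr4 and Myd88 did not meet the rule in all cells of the class either. In distal tubule or collecting duct-like cells, which had too few plates to be compared, Tlr2 was at 48.0 CPM in IgAN and 1.94 CPM in Control and Tlr4 at 28.3 CPM and 0.121 CPM, with endothelial markers at 4404 CPM and 509 CPM. In those with a marker sum under 1000 CPM, Tlr2 was at 65.9 CPM in 37 IgAN cells and 1.99 CPM in 45 Control cells. Of these IgAN cells 3 were positive, and 1 held 55.8% of the reads. Tlr4 was at 1.21 CPM and 0.124 CPM there. The part of endothelial RNA was not tested.

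Tlr12 in proximal tubule-like cells was the member that fell. It had 0 reads in 150 IgAN cells and 834 reads in 85 Control cells, or 44.5 CPM. By plate it was 0 CPM on every IgAN plate, and 134, 22.8 and 19.9 CPM on the Control plates. Against a floor of 3 counts over the IgAN group, 0.0834 CPM, it was at least 533 times higher in Control. Of the Control cells 6 of 85 were positive (7.06%, interval 2.63 to 14.7), 4 of them on 1 plate, and 1 cell held 30.3% of the reads. Without that plate the call was lost (log2 ratio -4.46), and it was lost with all cells thinned to 50000 reads. In the 86 IgAN cells low in endothelial markers there were 0 reads as well. The 6 positive cells had a median macrophage or dendritic marker sum of 39.0 CPM, against 56.4 CPM in the other Control cells, and a proximal tubule marker sum of 13862 CPM against 13370.4 CPM. Between groups, the proximal tubule markers themselves summed to 6425 CPM in IgAN and 12569 CPM in Control cells of the class, and their part in the difference was not tested.

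**Figure D5:**
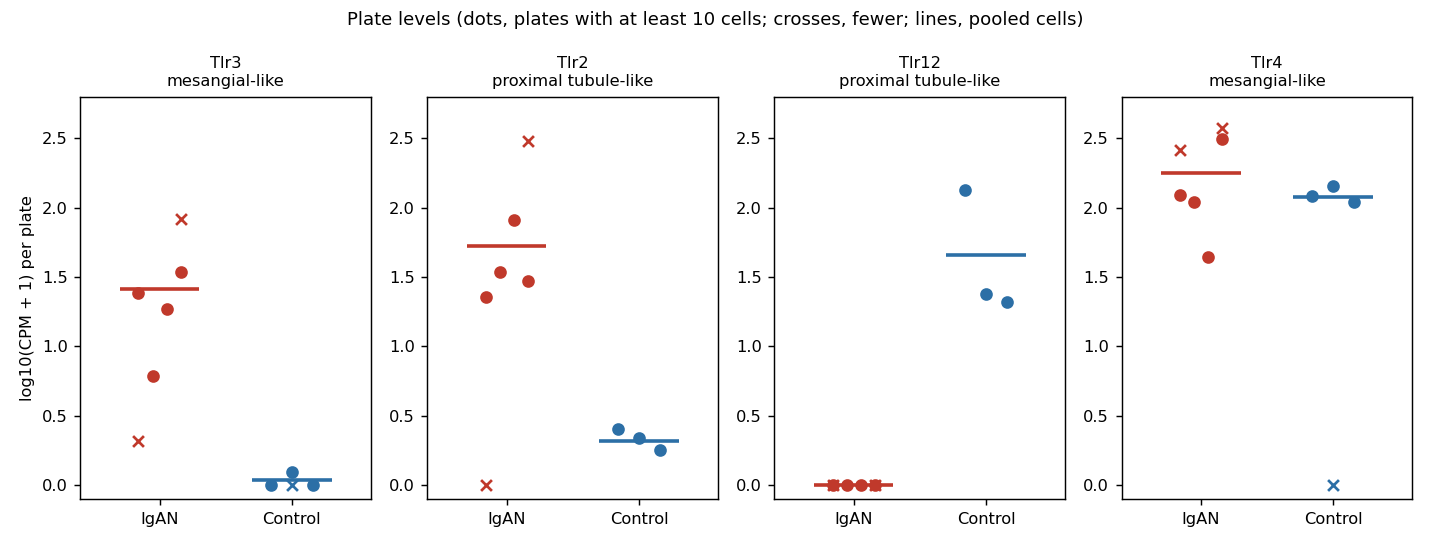
Levels by plate, as log10(CPM + 1), of Tlr3 and Tlr4 in mesangial-like cells and Tlr2 and Tlr12 in proximal tubule-like cells, IgAN left of Control. Dots are plates with at least 10 cells of the class, crosses plates with fewer and lines the pooled level. By the dots, the groups stand apart for Tlr3 (5.09 to 33.4 CPM in IgAN, 0 to 0.233 CPM in Control), Tlr2 and Tlr12, and overlap for Tlr4. A cross of 3 IgAN cells for Tlr2 lies at 0 CPM, below the Control plates.

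Outside the 5 compared classes, Tlr7 is given in 2 more, chosen after its values were seen. Tlr7 in podocyte-like cells, the epithelial cells of the filtration barrier, was at 1.26 CPM in 40 IgAN cells and 23.2 CPM in 146 Control cells. The 2 IgAN plates with 10 such cells held 0.382 and 0.553 CPM, and the 4 Control plates 21.2, 5.89, 5.86 and 48.8 CPM. These did not overlap, but an IgAN set of 6 cells held 5.92 CPM, within the Control range. The level was 18.4 times higher in Control by its pooled ratio, with a counting interval of 10.9 to 33.8. Positive cells were 0 of 40 in IgAN (up to 8.81%) and 12 of 146 in Control (8.22%, interval 4.32 to 13.9), found on all 4 Control plates. Their median macrophage or dendritic marker sum was 36.9 CPM, against 35.3 CPM in the other Control cells. Tlr7 in B or plasma cell-like cells was at 71.7 CPM in IgAN and 3.37 CPM in Control, 21.3 times with a counting interval of 16.6 to 27.5, with 4 of 27 and 4 of 117 cells positive and 55.0% of the reads in 1 cell. The 9 macrophage or dendritic markers, among them H2-Aa, which B cells also use, summed to 3562 CPM in these IgAN cells and 2595 CPM in the Control ones, and their part was not tested.

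Other genes of the pathway were taken from 9 lists of 65 genes in all, and described by the same rule. In macrophage or dendritic-like cells no gene of any list met it, among them 13 of 13 measured kinases and ligases (median log2 ratio -0.26) and 6 of 6 transcription factors (-0.51). The median of all measured genes of that class was 0.06, and 0.789% of them were higher and 0.461% lower. In endothelial-like cells Cd36, a co-receptor and fatty acid carrier, was higher (738 CPM in IgAN, 367 CPM in Control), as was Zbp1, a sensor of Z-form nucleic acid (11.4 CPM and 1.79 CPM). Cd36 was 1 of 7 measured co-receptors and trafficking genes, and Zbp1 1 of 6 measured RNA and DNA sensors. Over all measured genes of this class 0.791% were higher and 0.678% lower. The 5 measured targets had a median log2 ratio of 1.20, against 0.02 for all genes of the class, and none met the rule.

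In mesangial-like cells 2 of the listed genes were higher, Cd36 (26.3 CPM in IgAN, 5.48 CPM in Control) and the interferon-induced chemokine Cxcl10 (14.2 CPM and 0.327 CPM). Lower were Irak4, the kinase that joins Myd88 first (8.13 CPM and 35.1 CPM), and Irf7, a factor that switches on interferon genes (29.7 CPM and 75.4 CPM). Their lists held 7 measured co-receptors and trafficking genes, 2 targets, 12 kinases and ligases and 5 transcription factors. Over all 10064 genes measured there 2.42% were higher and 2.21% lower, and the median log2 ratio was 0.00.

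Proximal tubule-like cells had the most calls, in the lists as over all genes, of which 6.96% were higher and 2.18% lower in this class. Of 7 measured co-receptors and trafficking genes 2 were higher, Cd14 (239.9 CPM in IgAN, 13.3 CPM in Control) and Lbp, which carries lipopolysaccharide in blood (48.4 CPM and 0.267 CPM), with a median log2 ratio of 1.87. Of 4 measured targets 3 were higher, the chemokines Cxcl1 (121 CPM and 0.747 CPM), Ccl2 (13.2 CPM and 0.107 CPM) and Cxcl10 (114 CPM and 0.213 CPM), with a median of 4.91. Irf7 (42.7 CPM and 2.72 CPM), Rel, a subunit of NF-kB (15.7 CPM and 1.71 CPM), the deubiquitinase Cyld (42.5 CPM and 1.92 CPM) and the RNA sensor Ifih1 (35.8 CPM and 0.213 CPM) were higher, and Irf3 was lower (62.1 CPM and 127 CPM). The median over all measured genes of this class was 0.32, and the part of the endothelial RNA given above in these calls was not tested. In the T or NK class 1 listed gene met the rule, the kinase Ikbke, which was lower (78.4 CPM in IgAN, 184 CPM in Control). It was 1 of 13 measured kinases and ligases. Over all measured genes of that class 0.424% were higher and 1.26% lower.

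Across the 21 clusters, the genes whose log2(CPM + 1) followed that of a member most closely were found by Pearson correlation among 13547 genes. The clusters share plates, so the values describe likeness and no p is given. Tlr13 was closest to Gpr141 and Pilrb1 (both r = 1.00) and Fut4 (0.99), and Tlr9 to Bcl11a, a factor of B cells and plasmacytoid dendritic cells (0.99), Hepacam2 (0.98) and Cd74, the invariant chain of class II presentation (0.96). Tlr7 was closest to Spic (0.90), Tlr2 to Gda, Rasgrp4 and Hacd4 (each 0.89), and Tlr12 to Tfec (0.91), Upb1 (0.83) and Acot4 (0.83), all 3 highest in proximal tubule-like clusters. Tlr3 was closest to the interferon-induced Ifi44 (0.92), Tlr4 to Cdc42ep4 and Ifitm3 (both 0.91), and Myd88 to Cdc42 (0.91). Among the members themselves, Tlr7 and Tlr9 (0.77), Tlr2 and Tlr13 (0.76) and Tlr3 and Tlr4 (0.65) were the most alike, and Tlr12 and Myd88 the least (-0.35).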

How the data were processed

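The authors deposited 1 table of raw counts: reads per gene name in each of 3143 cells, 46517 names, not normalized. Per the submitters' processing notes, the tools were featureCounts, Subread 1.4.6-p5, SAMtools 0.1.18 and TopHat2 2.1.1, with GRCm38/mm10, and the strand setting is not given in the sources used here. All cells passed 10000 reads and 500 genes, their names were distinct and none repeated the counts of another. Groups came from the treatment label.

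From the counts, CPM were computed over all reads in genes of a set of cells. Cells were clustered with scanpy 1.11.5 and leidenalg 0.10.2 under Python 3.11.15 (2000 variable genes, 30 principal components, 15 neighbours, resolution 1) without 13 genes of the family and Myd88, and a cluster was named from at least 3 detected markers of its class. Doublets were not called, and markers of other lineages are given beside the results. Most cells outside the endothelial class carried markers of another lineage at 10 CPM, and reads in a cell that is not their source were not removed. Poisson and binomial intervals are exact and do not cover differences between animals. The rule of size was run on simulated counts that held no differences between plates. How often plates alone give a call was therefore not tested. Levels were recomputed with each cell thinned to 50000 reads, with other clusterings, scalings, filters and pseudocounts, and without each plate. The members, gene lists and rule for named genes (all members, listed genes past the size rule or abundant, and the 3 genes most like each member) were chosen with earlier results of these data known.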

Additional observations from a re-analysis of the deposited data

Results flagged for a closer look

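Within 32 sets of plate levels examined, 2 held a plate far from the others, and chance flags about 1 set in 20. Tlr9 in macrophage or dendritic-like cells stood at 175 CPM on IgAN plate 316, where 6 of 28 cells were positive, while the other IgAN plates held 1.07 to 22.8 CPM. Myd88 in T or NK cell-like cells stood at 164 CPM on Control plate 326, where 8 of 35 cells were positive, while the other Control plates held 65.9 to 73.9 CPM and the IgAN plates 55.7 to 224 CPM.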

How the results depend on the processing

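Of the 3 calls, all were kept at clustering resolutions 2 and 0.6, with median of ratios scaling and with the mean of cell CPM. They were also kept without a low filter or with one at 20 CPM, and with a pseudocount of 5 CPM. The same held in cells of at least 100000 reads and 1000 genes. Subtracting the median of all measured genes (an alternative added after seeing the data) reversed 0 of the 3 log2 ratios. The rule itself was not applied again there. Thinned to 50000 reads, the count of members lower was 0, since Tlr12 lost its call. Leaving out 1 plate at a time gave 2 to 4 members higher and 0 to 1 lower. Tlr12 lost its call without Control plate 314 (log2 ratio -4.46), where it no longer passed the filter of 10% of cells with a read. Without IgAN plate 316, Tlr4 and Myd88 in proximal tubule-like cells were called, without Control plate 317 Tlr3 there, without Control plate 321 Myd88 there and without IgAN plate 325 Myd88 in mesangial-like cells. With cells assigned by marker share, and without cells carrying markers of another lineage, only 1 class could be compared and the counts were 0 higher and 0 lower. The cause was not tested beyond the classes lost by construction. The log2 ratio of Tlr2 in proximal tubule-like cells ran down to 3.23 (pseudocount 5 CPM), and in cells low in endothelial markers (also added after seeing the data) it was 5.06, with 64.3% of the IgAN reads in 1 cell, while Tlr3 there was -0.36 and Tlr4 0.51. No paired analysis was possible because the plates carry no replicate numbers shared between groups. For each of the 8 genes, the level in its leading class with plates of 10 cells, taken as the mean of cell CPM or with plates weighted equally, moved by less than 1 SD between plates. Depth limits the rare genes: a gene at 1 to 3 reads in a cell cannot be told from background.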
